A study of Mus musculus with 6 samples.

Results

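The proteasome is the barrel-shaped protease that degrades ubiquitin-tagged proteins, and its genes carry the prefix Psm. Members were the protein-coding genes whose GENCODE symbol joins Psm, a letter from a to g and a number, with or without a final a or b. The rule found 49 genes among the 53801 genes counted in every file. Of these, 47 had enough reads to be tested. Psmb11, the subunit of the thymus proteasome, had 4, 2 and 1 reads in WT and 0, 0 and 1 in the mutants, and Psme2b had 0 reads in all 6 libraries, so neither was tested.

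RNA-seq was carried out on the maxillary prominences of mouse embryos at E12.5, with 3 WT and 3 wnt1cre; Rosa26Dlx2/- samples (Dlx2OE below), all labelled with the strain C57BL/6. The knock-in was made in C57BL/6J and the WT mice were bought as C57BL/6J. Dlx2OE embryos carried a Cre-dependent cassette at the Rosa26 locus, in which the CAG promoter drives Flag-tagged Dlx2 once a loxP-flanked stop is removed, together with a Cre expressed from the Wnt1 promoter in the neural crest lineage. Cells of other lineages in the prominence, such as surface epithelium, endothelium and blood, do not express this Cre. The comparison asks which transcripts differ when Dlx2 is overexpressed in neural crest-derived cells. The methods describe 3 independent RNA samples per genotype, but the numbers of littermates in the labels and in the methods differ, so whether a sample is 1 embryo or a pool is not clear, and p-values measure only the spread between these samples.

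The 26S proteasome consists of a 20S core capped by a 19S regulatory particle. The core stacks rings of alpha subunits, which form the gate, and beta subunits, of which Psmb6, Psmb7 and Psmb5 hold the active sites, while the 19S particle is built of an ATPase-containing base, which unfolds the substrate, and a lid, which removes ubiquitin. In immune cells and under interferon, the inducible subunits Psmb9, Psmb10 and Psmb8 replace the 3 catalytic subunits, and other caps, PA28 (Psme1 and Psme2, or Psme3 alone) and PA200 (Psme4), can take the place of the 19S particle.

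Total counts on genes ranged from 26155500 to 31308813 per library. Dlx2 itself had 1255, 1056 and 1409 reads in WT and 3521, 4102 and 3336 in Dlx2OE, so every library matched its label, with a log2 fold change of 1.598 ± 0.118 (SE; edgeR adjusted p = 0.00241). All 10 mesenchyme markers were detected, among them Prrx1 at 555 and Pdgfra at 371 CPM (reads scaled to library size by the TMM method) in WT. The share of read pairs that fell on no gene was 5.03% to 5.43% in WT and 5.75%, 7.81% and 14.7% in Dlx2OE. Of the marker lists for other cells, 3 of 10 macrophage, 1 of 8 endothelium, 3 of 8 erythroid, 2 of 9 epithelium, 1 of 8 neuron, 0 of 6 muscle and 0 of 4 tested glia genes had adjusted p under 0.05 and a lower level in Dlx2OE, as did 3.46% of all genes. Of all the marker lists, 2 genes, the mesenchyme genes Alx4 and Twist1, were called higher, as were 2.99% of all genes. Epithelium markers were split, 4 higher and 5 lower, and summed to 692 to 1274 CPM in WT, against 547 to 1767 CPM in Dlx2OE. The 2 called lower were Krt8 and Krt18, and the 4 higher, Krt5, Krt14, Krt15 and Trp63, were not called. Neuron markers were higher in 7 of 8 without a call, and summed to 171 to 417 CPM in WT, against 254 to 1041 CPM in Dlx2OE. In whole tissue, fewer cells of a type and less RNA per cell cannot be told apart.

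Of the 47 tested members, 2 were called lower in Dlx2OE at an adjusted p under 0.05 and 0 were called higher (edgeR, adjusted over 17514 genes). Genes called in either direction made up 6.45% of all genes tested, and those called lower 3.46%, so 2 of 47, or 4.26%, was close to the background. The called members were Psmb5, which carries the chymotrypsin-like active site, and Psme2, the beta chain of PA28. At an unadjusted p under 0.05 there were 20 members lower and 1 higher, or 21 of 47, where 29.5% of all genes passed in either direction and 15.4% were lower. No member was called past a 2-fold change, against 3.12% of all genes.

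Psmb5 (ENSMUSG00000022193) lies at chr14:54614119-54618022 on the reverse strand of mm10. The WT samples had 59.4, 58.0 and 46.2 CPM, and the Dlx2OE samples 38.4, 38.7 and 32.9 CPM. All 3 WT samples lay above all 3 Dlx2OE samples. The log2 fold change was -0.57 ± 0.128 (SE), a decrease of 32.8% (edgeR adjusted p = 0.0420). Over the 6 fits that left out 1 library, the adjusted p ranged from 0.0178 to 0.159 and was under 0.05 in 2 of them, those without WT 3 (0.0178) and without Dlx2OE 1 (0.0418).

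Psme2 (ENSMUSG00000079197) lies at chr14:55587441-55591113, also on the reverse strand. It had 88.1, 80.4 and 61.3 CPM in WT and 53.5, 51.3 and 45.7 CPM in Dlx2OE. Again the groups did not overlap, although WT 3 sat closer to the highest Dlx2OE sample than to the other WT samples. The log2 fold change was -0.61 ± 0.144 (SE), a decrease of 34.5% (edgeR adjusted p = 0.0473). With 1 library left out in turn, the adjusted p lay between 0.0134 and 0.167 and passed without WT 3 (0.0134) and without Dlx2OE 1 (0.0433).

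The stretches of 150 bases directly before the annotated starts of both called genes are given here, with that of Psme3 as the related activator whose level was not lower in Dlx2OE. They are sequences of GRCm38.p6 that end just before the GENCODE start, written 5′ to 3′ on the strand of the gene. They lie at chr14:54618023-54618172 (reverse) for Psmb5, chr14:55591114-55591263 (reverse) for Psme2 and chr11:101316063-101316212 (forward) for Psme3. Relative to the RefSeq start, used for the windows below, the GENCODE start was at -27 for Psmb5, -12 for Psme2 and 0 for Psme3. Capitals mark matches to the motifs TGACNNNGC, CCAAT and CCGGAA on either strand.
Psmb5: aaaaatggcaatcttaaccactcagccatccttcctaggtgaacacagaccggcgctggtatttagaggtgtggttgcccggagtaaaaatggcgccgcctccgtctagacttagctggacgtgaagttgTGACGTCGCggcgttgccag
Psme2: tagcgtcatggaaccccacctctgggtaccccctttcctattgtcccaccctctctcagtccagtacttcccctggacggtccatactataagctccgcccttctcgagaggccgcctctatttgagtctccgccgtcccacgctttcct
Psme3: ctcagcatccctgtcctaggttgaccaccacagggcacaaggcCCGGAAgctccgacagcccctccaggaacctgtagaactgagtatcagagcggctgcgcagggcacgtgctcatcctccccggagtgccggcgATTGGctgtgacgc

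TGACNNNGC is the core of the antioxidant response element, the sequence through which the factors Nfe2l1 and Nfe2l2 switch on proteasome genes, CCAAT is the CCAAT box, and CCGGAA is the core bound by ETS factors. RefSeq windows from 250 bases before to 50 bases after the start were found for 41 members, and not for Psma8, Psmb1, Psmb2, Psmb7, Psmc3, Psmd3, Psmd7 and Psmg2. The ETS core stood in 20 of these 41 members, or 48.8%, against 14.9% of 32851 mouse promoters, 55.6% of 63 ribosomal protein promoters and 37.9% of 66 respiratory promoters. The antioxidant core stood in 6 members, Psmb5, Psmb6, Psmc6, Psmd9, Psmd12 and Psme4. This was 14.6%, against 12.4% of all, 20.6% of ribosomal and 13.6% of respiratory promoters. Its looser form, TGANNNNGC, stood in 23 members, or 56.1%, against 41.3% of all, 42.9% of ribosomal and 45.5% of respiratory promoters. A stricter form, TGACTCAGC, stood in 0 members, against 0.454% of all, 0% of ribosomal and 0% of respiratory promoters. The CCAAT box stood in 14, or 34.1%, against 37.4% of all, 30.2% of ribosomal and 43.9% of respiratory promoters. A loose interferon-stimulated element, GAAA repeated after any 2 bases, stood in 5 members, or 12.2%, against 3.44% of all, 11.1% of ribosomal and 3.03% of respiratory promoters. These were Psmb3, Psmd4, Psmd9, Psme1 and Psmg4, and not the inducible subunits Psmb8, Psmb9 and Psmb10. The motifs given here were picked from 11 after their counts were seen. Motif matches can overlap, and a match is a string of letters and not a bound site.

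Although few members were called, 43 of 47 had a negative log2 fold change, while 8707 of the 17514 genes tested did. The median over the members was -0.34, against 0.0028 over all genes. The 4 members with a higher mean in Dlx2OE were Psme4, Psme3, Psmd2 and Psmd1, of which Psmd1 turned to -0.04 under a correction for length and GC content. The groups did not overlap, with Dlx2OE lower, for 13 members (27.7%), against 17.3% of all genes, and did not overlap with Dlx2OE higher for Psme4 alone, against 16.7% of all genes. The plot of fold changes by particle shows the members in order.

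**Figure D1:**
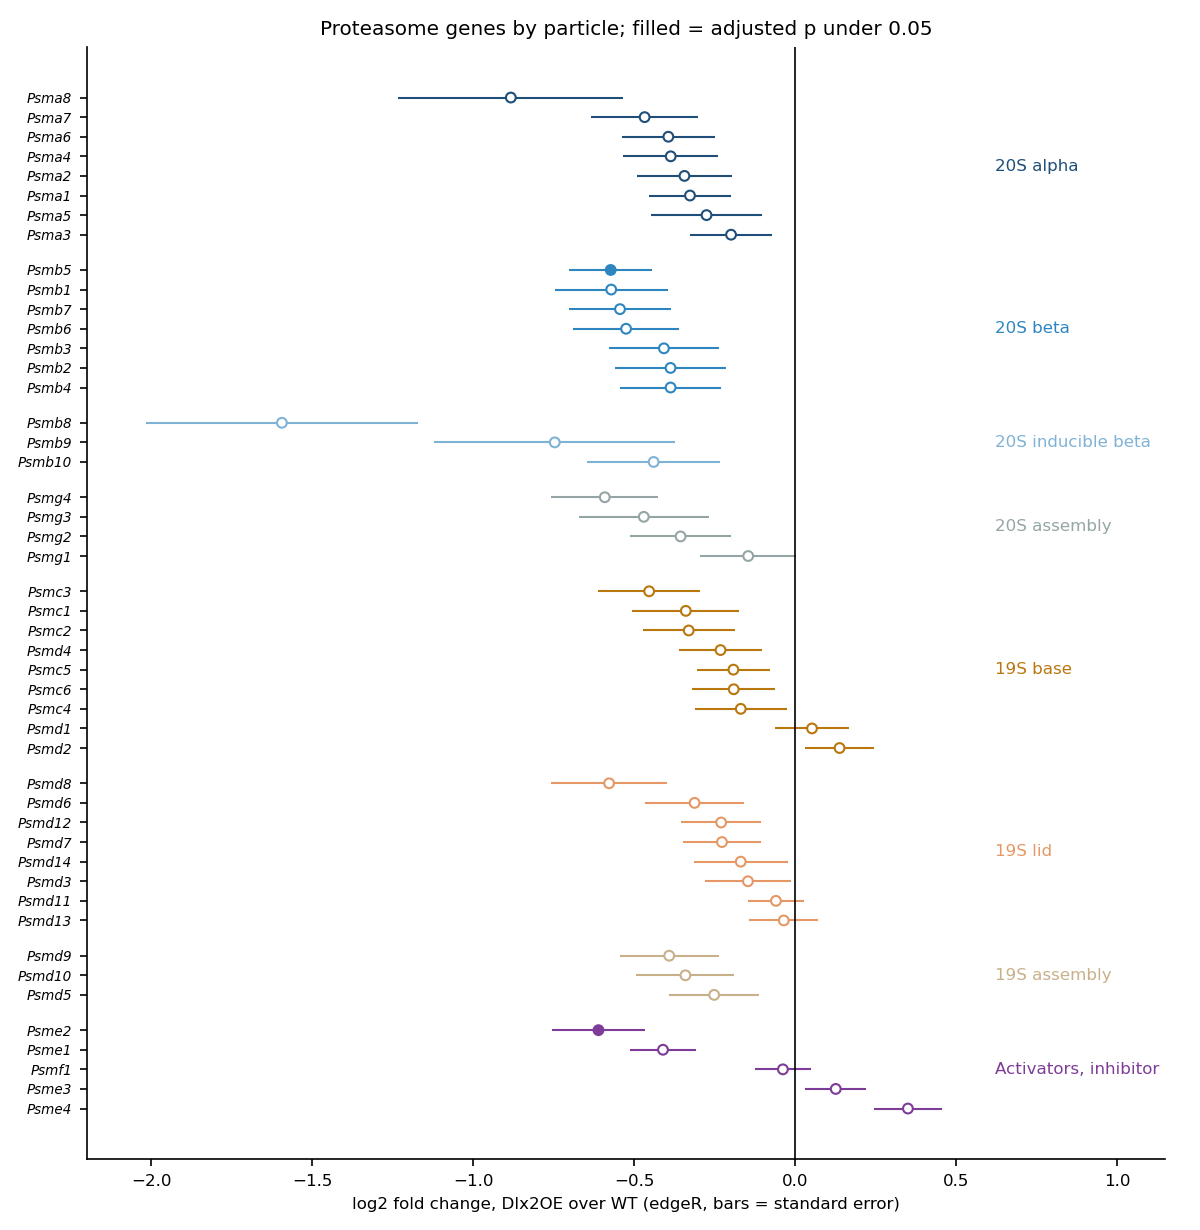
Log2 fold changes of the 47 tested proteasome genes, Dlx2OE over WT, grouped by particle. Bars are the standard error derived from the edgeR F statistic. Filled points (Psmb5 and Psme2) have an adjusted p under 0.05. The median is -0.39 for the constitutive 20S genes (Psma8 included) and -0.19 for the 19S genes, and the points of the particles overlap.

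The samples of a genotype did not behave alike. Each gene's log2 CPM was set against its mean over the 6 samples, and the median over the members was 0.33, 0.24 and -0.11 in WT 1, 2 and 3, and -0.07, -0.09 and -0.30 in Dlx2OE 1, 2 and 3. WT 3 therefore lay below 2 of the Dlx2OE samples. In WT 1 and in WT 2, 43 of 47 members were above their own mean, and 9 were in WT 3. Without WT 3, 18 members were called lower in Dlx2OE, where 7.14% of all genes were called lower. Among them were 11 of the 15 constitutive 20S subunits and 3 of the 17 subunits of the 19S particle. The 15 include Psma8, the testis subunit described below, which was not called. Without WT 1, without WT 2, without Dlx2OE 2 or without Dlx2OE 3, no member was called in either direction, and without Dlx2OE 1 there were 3. Without WT 3 and Dlx2OE 3 together, a choice made after seeing the data, 6 members were called lower, as were 500 of 17594 genes. DESeq2 called 8 members lower (Psmb1, Psmb5, Psmb6, Psmb7, Psmd8, Psme1, Psme2 and Psmg4), against 7.11% of the genes it gave an adjusted p.

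Cytoplasmic ribosomal protein genes (81 of 83 tested) and genes of the respiratory chain and ATP synthase (81 of 85 tested) were also abundant as lists. Both lists also had WT 3 far below WT 1 and WT 2, with larger differences between samples. The median deviation of 81 ribosomal protein genes was 0.56, 0.66 and -0.09 in WT and -0.20, -0.32 and -0.59 in Dlx2OE. That of 81 respiratory genes was 0.47, 0.52 and -0.06 in WT and -0.18, -0.28 and -0.44 in Dlx2OE. Their median log2 fold changes were -0.78 and -0.65, beside -0.34 for the proteasome, and 26 (32.1%) and 22 (27.2%) of them were called lower, beside 2 of the 47 proteasome genes. Summed over the members, proteasome transcripts made up 6941 ± 973 CPM in WT against 5769 ± 450 CPM in Dlx2OE (SD, n = 3), a mean lower by 16.9%, and the ranges of the groups overlapped. The ribosomal sum was lower by 39.7% and the respiratory sum by 28.4%. On this TMM scale the sum over all genes tested was itself lower by 4.74%. Scaled by library size alone, the members' median log2 fold change was -0.27.

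**Figure D2:**
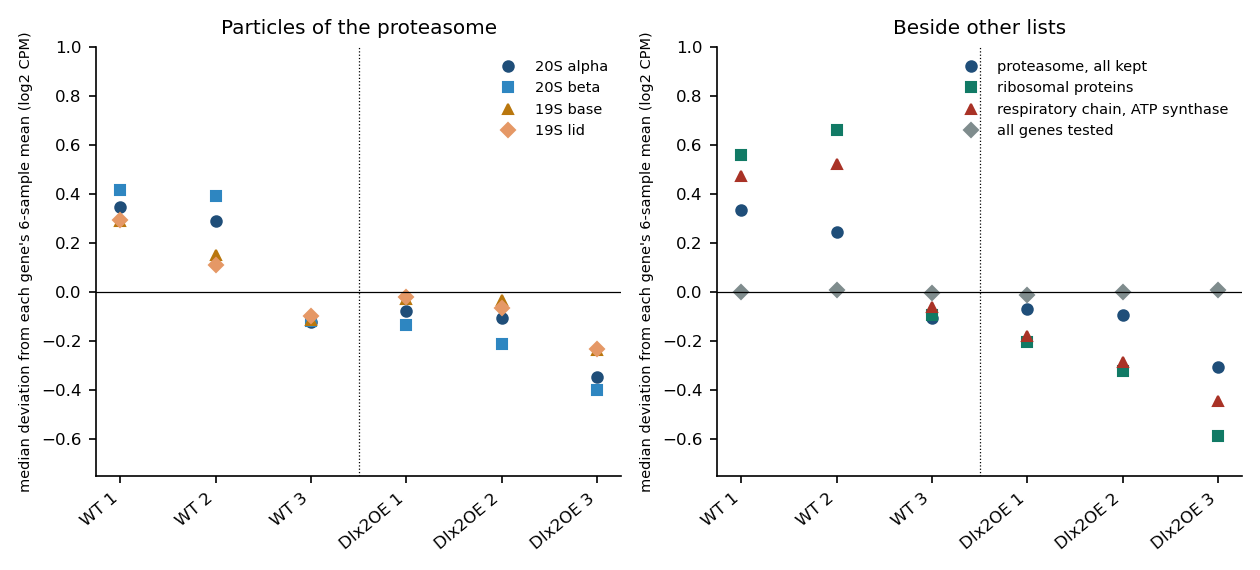
Median deviation of each gene list from the genes' own 6-sample means in log2 CPM, 1 point per list and sample, for the 20S and 19S parts (left) and for the proteasome beside ribosomal protein, respiratory and all tested genes (right). WT 3 (-0.11 for the proteasome) sits with the Dlx2OE samples, and the all-gene median stays near 0 in every sample.

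The alpha subunits form the outer rings and the gate of the 20S core. All 8 had a negative log2 fold change, with a median of -0.37, and none was called, although 6 had an unadjusted p under 0.05. The ubiquitous subunits Psma1 to Psma7 ran from -0.47 for Psma7 to -0.20 for Psma3. Psma3 had 266, 254 and 210 CPM in WT and 227, 219 and 191 CPM in Dlx2OE, so WT 3 lay below the first 2 Dlx2OE samples. Psma8, the alpha subunit of the testis proteasome, was the lowest, at -0.88 ± 0.350 (SE; edgeR adjusted p = 0.142), on few reads: 46, 43 and 24 in WT and 21, 23 and 16 in Dlx2OE. The WT 3 count was 1 read above the highest Dlx2OE count.

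Of the 7 constitutive beta subunits, 4 were lower without overlap between the groups, where 17.3% of all genes were. All 7 were negative, and their median of -0.53 was the most negative among the constitutive parts. Their summed level was 1376 ± 279 CPM in WT against 988 ± 95.5 CPM in Dlx2OE (SD, n = 3), lower by 28.2%. Psmb5 was the member with the lowest fold change and the single one called. Psmb4, which has no active site, was the highest, with 328, 313 and 226 CPM in WT and 241, 222 and 200 CPM in Dlx2OE, where WT 3 fell inside the Dlx2OE range.

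Psmb6 carries the caspase-like active site. It had 285, 275 and 190 CPM in WT and 188, 177 and 157 CPM in Dlx2OE, with WT 3 barely above the highest Dlx2OE sample and a log2 fold change of -0.53 ± 0.165 (SE; edgeR adjusted p = 0.0881). Psmb7 carries the trypsin-like site. Its levels of 211, 183 and 140 CPM in WT and 131, 125 and 110 CPM in Dlx2OE did not overlap either, at a log2 fold change of -0.54 ± 0.157 (SE; edgeR adjusted p = 0.0738). Without WT 3, all 7 constitutive beta subunits were called lower.

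Inducible beta subunits were rare in this tissue, and the gap to the constitutive subunits was far larger than any difference between the genotypes. Per kilobase of exon, Psmb9 was 0.196% ± 0.0339 of Psmb6 in WT and 0.173% ± 0.0707 in Dlx2OE (SD, n = 3). Psmb10 reached 10.9% ± 1.67 of Psmb7 in WT and 11.8% ± 1.92 in Dlx2OE, so it was the most abundant of the 3. Psmb8 was 0.270% ± 0.0229 of Psmb5 in WT and 0.127% ± 0.0437 in Dlx2OE. In each sample the Psmb8 share was 0.245%, 0.289% and 0.277% in WT and 0.117%, 0.175% and 0.0896% in Dlx2OE, without overlap. These shares depend on the length used: per principal transcript, a choice made after seeing the data, Psmb10 was 4.82% of Psmb7 in WT and 5.19% in Dlx2OE, and Psmb8 was 0.561% and 0.264% of Psmb5.

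Psmb8 rested on 16, 19 and 15 reads in WT and 5, 8 and 3 in Dlx2OE. The log2 fold change was -1.59 ± 0.421 (SE; edgeR adjusted p = 0.0599), the most negative of all members and not past the threshold. Psmb9 had 28, 38 and 21 reads in WT and 13, 16 and 21 in Dlx2OE. In CPM the groups overlapped, since Dlx2OE 3 (0.775) lay above WT 3 (0.674), with a log2 fold change of -0.75 ± 0.374 (SE; edgeR adjusted p = 0.222). Psmb10 had 9.84, 11.5 and 7.54 CPM in WT and 6.28, 7.77 and 7.27 CPM in Dlx2OE, which overlapped, at -0.44 ± 0.208 (SE; edgeR adjusted p = 0.198). Psmb8 and Psmb9 are neighbors in the major histocompatibility region of chromosome 17, 9956 bp apart. They share 498 exon bases with Gm20496 and 212 with Tap1, respectively. Unstranded reads there cannot be assigned with certainty, and counting in union mode leaves out reads that overlap another gene as well.

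Other interferon and antigen presentation genes stood beside them. Of 13 listed genes 12 were tested, and 11 had a negative log2 fold change, where 8707 of all 17514 genes tested did. Only 1, or 8.33%, was called lower, where 3.46% of all genes were. It was B2m, the light chain of class I molecules (log2 fold change -0.97, edgeR adjusted p = 0.0398). Ifit1, Isg15, Irf7 and Tap2 rested on 6 to 33 reads per library. The list's median was -0.56, and its genes summed to 125 to 194 CPM in WT, against 98.3 to 104 CPM in Dlx2OE. B2m alone made up 109 ± 32.1 CPM of the sum in WT, against 55.9 ± 4.89 CPM in Dlx2OE (SD, n = 3), and so most of the difference. Of 10 macrophage markers, none of them at 0 reads, 9 had a negative log2 fold change. C1qa, C1qb and C1qc, or 30%, were called lower, where 3.46% of all genes were. Cx3cr1 was positive at 0.32 and Ptprc was at -0.10, neither of them called. The macrophage markers summed to 100 to 112 CPM in WT and 66.4 to 72.6 CPM in Dlx2OE. The part of these cells in the levels of the inducible subunits was not tested.

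**Figure D3:**
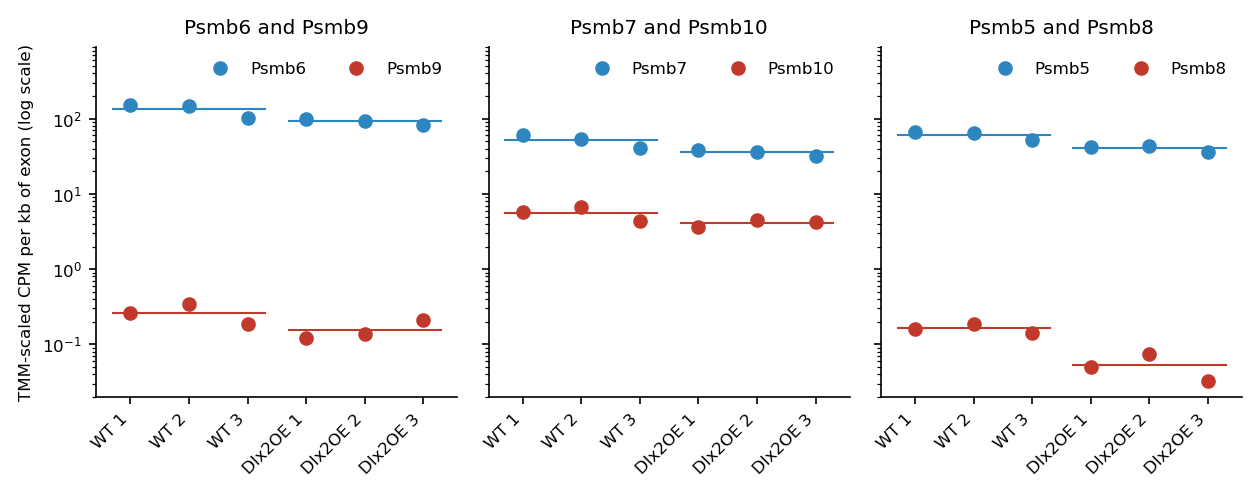
TMM-scaled CPM per kilobase of exon, on a log axis, of the 3 constitutive catalytic subunits (blue) and their inducible counterparts (red) in each sample, with lines at the group means. In WT, Psmb10 lies at 10.9% of Psmb7, whereas Psmb9 and Psmb8 lie at 0.196% and 0.270% of their counterparts.

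Chaperones of the 20S core help to build the alpha ring. All 4 (Psmg1 to Psmg4) had a negative log2 fold change, except for Psmg1 after the length and GC correction, with a median of -0.41, and none was called. Psmg4 was the lowest, with 24.5, 25.4 and 19.2 CPM in WT and 17.9, 13.5 and 14.5 CPM in Dlx2OE, no overlap, and a log2 fold change of -0.59 ± 0.166 (SE; edgeR adjusted p = 0.0687). Psmg1 was the highest, with 39.2, 35.01 and 28.7 CPM in WT and 33.4, 33.1 and 26.5 CPM in Dlx2OE, which overlapped, at -0.15. Pomp, the maturation factor of the core that the symbol rule leaves out, had a log2 fold change of -0.55 ± 0.170 (SE; edgeR adjusted p = 0.0844).

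The base of the 19S particle holds the 6 ATPases Psmc1 to Psmc6 and the subunits Psmd1, Psmd2 and Psmd4, which dock ubiquitin and its carriers. Its 9 genes had a median log2 fold change of -0.19, or -0.30 without WT 3, and none was called. Psmc3 was the lowest, with 344, 304 and 230.3 CPM in WT and 230.5, 218 and 192 CPM in Dlx2OE, so that WT 3 lay just below the highest Dlx2OE sample, and a log2 fold change of -0.45 ± 0.159 (SE; edgeR adjusted p = 0.111). Psmd2 was the highest, with 346, 314 and 323 CPM in WT and 369, 378 and 334 CPM in Dlx2OE. Here the groups overlapped in the other direction, with a log2 fold change of 0.14 ± 0.107 (SE; edgeR adjusted p = 0.411), and Psmd1, the other large scaffold of the base, was at 0.05.

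In the lid, which carries the deubiquitinase Psmd14, all 8 genes had a negative log2 fold change, although Psmd11 and Psmd13 turned positive when scaled by library size alone. The median was -0.20, or -0.31 without WT 3, and none was called. Psmd8 was the lowest, with 283, 268 and 176 CPM in WT and 174, 167 and 147 CPM in Dlx2OE, WT 3 again next to the Dlx2OE samples, and a log2 fold change of -0.58 ± 0.181 (SE; edgeR adjusted p = 0.0871). Psmd13 was the highest, with 130, 127 and 113 CPM in WT and 127, 125 and 108 CPM in Dlx2OE, at -0.04. Psmd14 itself was at -0.17 ± 0.146 (SE; edgeR adjusted p = 0.463).

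The lid also holds Sem1, a small acidic subunit whose symbol the rule does not match. It had 222, 219 and 130 CPM in WT and 99.2, 104 and 82.6 CPM in Dlx2OE, without overlap. Its log2 fold change of -0.996 ± 0.208 (SE; edgeR adjusted p = 0.0356) was more negative than that of any constitutive Psm subunit, and with 1 library left out the adjusted p ranged from 0.00883 to 0.142, passing without WT 3 (0.00883) and without Dlx2OE 1 (0.0375). Sem1 lies at chr6:6557294-6578663 on the reverse strand, 285 kb from Dlx6.

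The 3 assembly chaperones of the base were also all negative and not called, with a median of -0.34. Psmd9 was the lowest, with 64.3, 61.6 and 43.9 CPM in WT and 45.3, 44.9 and 39.2 CPM in Dlx2OE, where WT 3 fell below 2 Dlx2OE samples. Psmd5 was the highest, with 118, 108 and 88.7 CPM in WT and 98.7, 89.5 and 76.3 CPM in Dlx2OE. Psmd9 shares 1849 of its exon bases with Gm26745. Counting in union mode leaves out reads that overlap another gene as well, so its level may be understated.

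Across the particles, the 15 constitutive 20S genes, Psma8 included, had a median log2 fold change of -0.39 and the 17 19S genes one of -0.19. The 20S median moved to -0.57 without WT 3 and to -0.28 with the length and GC correction. The 19S median moved to -0.31 without WT 3 and to -0.12 with library size alone or with the length and GC correction. In the 20S core 12 of 15, among them Psma8, had an unadjusted p under 0.05, all of them lower. In the 19S particle 2 of 17 did, where 15.4% of all genes were lower at that threshold. Summed, the 20S genes had 2871 ± 524 CPM in WT against 2168 ± 209 CPM in Dlx2OE, and the 19S genes 3269 ± 416 and 2842 ± 203 CPM (SD, n = 3). The difference between the particles was not tested, since members of a particle are not replicates.

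Per kilobase of exon, so that genes can be set side by side, the 14 ubiquitous 20S subunits had a median level of 82.8 ± 14.3 in WT and 62.6 ± 5.52 in Dlx2OE, in CPM per kilobase (SD over 3 samples). In WT they ran from 52.0 for Psmb7 to 148 for Psmb4, a 2.85-fold range for subunits that enter each core in equal number. The 17 subunits of the 19S particle had a median of 67.7 ± 12.3 in WT and 53.2 ± 4.62 in Dlx2OE, from 19.7 for Psmd11 to 142 for Psmc1, a 7.21-fold range. The 3 inducible subunits had a median of 0.263 ± 0.0803 in WT and 0.157 ± 0.0485 in Dlx2OE, so that each ranked below every ubiquitous subunit in both genotypes. Per principal transcript the range was 5.17-fold in the 20S core, from 60.7 for Psmb5 to 313 for Psmb6, and 4.05-fold in the 19S particle, so the ranges and their order depend on the length used.

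The activators differed in direction. Psme1, the alpha chain of PA28, had 65.6, 68.4 and 61.6 CPM in WT and 49.8, 52.9 and 44.3 CPM in Dlx2OE. WT 3 sat with the other WT samples here, and the log2 fold change of -0.41 ± 0.101 (SE; edgeR adjusted p = 0.0526) missed the threshold narrowly. Psme1 and Psme2 lie 5911 bp apart on chromosome 14.

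Psme3, the nuclear PA28 gamma, had 142, 141 and 156 CPM in WT and 169, 155 and 155 CPM in Dlx2OE, which overlapped (log2 fold change 0.13 ± 0.095, SE; edgeR adjusted p = 0.399). Psme4, PA200, had 176, 154 and 187 CPM in WT and 214, 229 and 216 CPM in Dlx2OE, all Dlx2OE samples being above all WT samples, at a log2 fold change of 0.35 ± 0.106 (SE; edgeR adjusted p = 0.0811). Psmf1, the inhibitor PI31, differed little, with 42.7, 43.8 and 45.6 CPM in WT and 43.2, 43.0 and 42.5 CPM in Dlx2OE. Within a sample, the log2 difference Psme4 minus Psme2 was 1.00, 0.94 and 1.61 in WT and 2.00, 2.16 and 2.24 in Dlx2OE, a pair chosen after its values were seen.

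**Figure D4:**
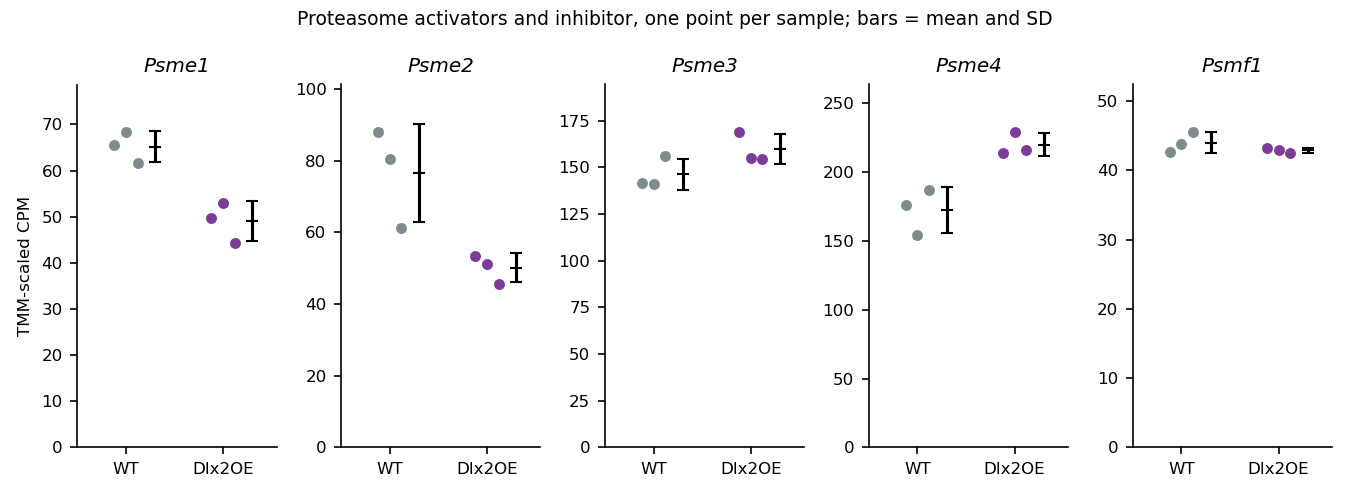
TMM-scaled CPM of the 3 PA28 genes, PA200 (Psme4) and the inhibitor Psmf1 in each sample, with the mean and SD of each genotype beside the points (n = 3). Psme1 and Psme2 are lower in all 3 Dlx2OE samples and Psme4 higher, while the points of Psme3 and Psmf1 overlap.

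Fold changes went with gene length over all genes and over the members. Over the 17496 tested genes with an annotated length, divided by it into 4 classes of like size, the median log2 fold change was -0.24 in the shortest class (up to 2353 bp), -0.09 in the next, 0.04 in the third and 0.17 in the longest. In these classes the members had medians of -0.39 (18 genes), -0.34 (19 genes), -0.24 (4 genes) and -0.05 (6 genes), below the all-gene median in each. Across the 47 members, which share the libraries, the log2 fold change and log2 exon length had r = 0.29 and rho = 0.33, and over all genes r = 0.18 and rho = 0.28. With the length of the principal transcript the values were r = 0.50 and rho = 0.58 for the members, and r = 0.32 and rho = 0.44 for all genes. The members with higher means in Dlx2OE, Psme4, Psmd1, Psmd2 and Psme3, have 8382, 7265, 4038 and 2949 exon bases, and the called Psmb5 and Psme2 have 899 and 1764. After a correction for length and GC content the members' median was -0.23, 41 of 47 stayed negative and 0 were called, against 4.33% of all genes called in either direction. By part, the correction moved the median to -0.315 in the beta ring, -0.26 in the 20S chaperones and -0.11 in the lid.

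**Figure D5:**
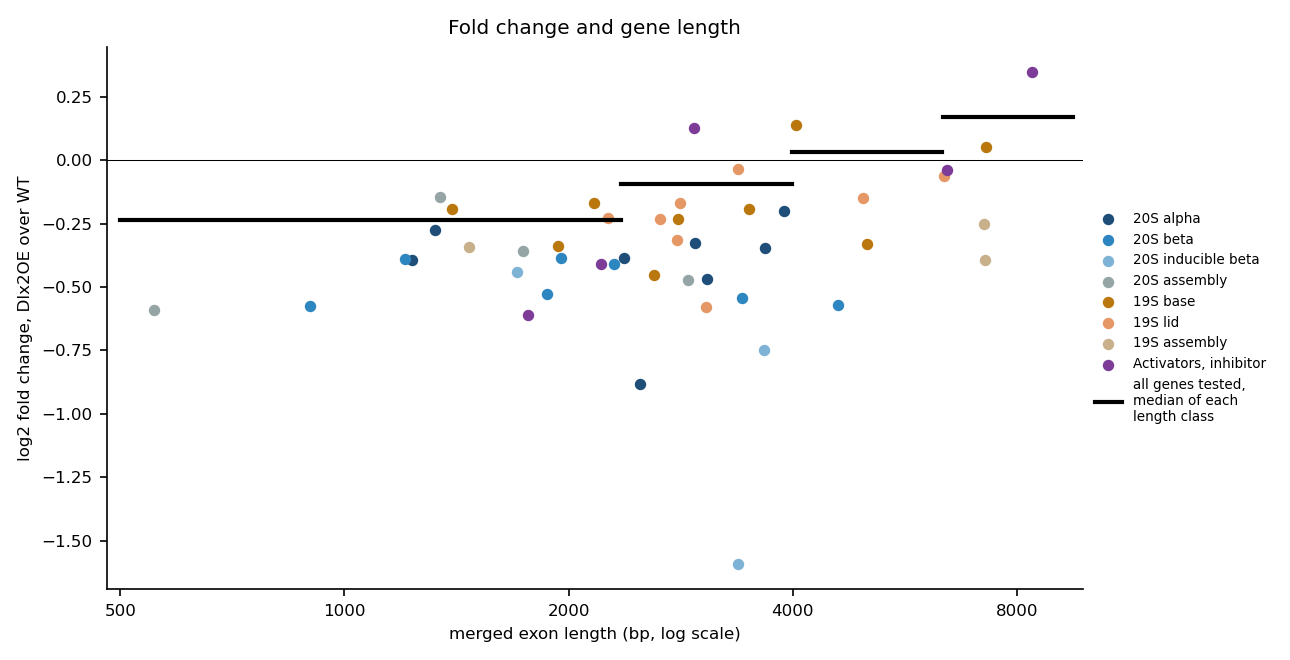
Log2 fold change of each tested proteasome gene against its merged exon length in bp (log axis), colored by particle, with black lines for the median of all tested genes in each of 4 length classes. Most members lie below the black line of their class, and Psme4 (8382 bp, 0.35) lies above it.

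Genes that work with the proteasome were set beside it as a list of 31 that were found and tested. Of these 1 was called lower, Sem1, and 0 higher, and 17 were negative and 14 positive, with a median of -0.03, or -0.09 without WT 3. At an unadjusted p under 0.05 there were 14, of which 8 were lower, where 29.5% of all genes passed and 15.4% were lower. Nfe2l1, the factor that raises proteasome transcription when the protease is blocked, was at 0.10 ± 0.1002 (SE; edgeR adjusted p = 0.534). Nfe2l2, its relative, had 52.4, 51.7 and 41.1 CPM in WT and 34.1, 36.4 and 29.1 CPM in Dlx2OE, without overlap. Its log2 fold change was -0.54 ± 0.135 (SE; edgeR adjusted p = 0.0538), and DESeq2 called it lower (adjusted p = 0.0135). Adrm1, the ubiquitin receptor of the base, was at -0.14 ± 0.111 (SE; edgeR adjusted p = 0.420). Nfe2l1, Nfe2l2, Adrm1 and Pomp were chosen after their values were seen.

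The members lie on 16 chromosomes, and the closest neighbors besides the pairs above are Psmb5 and Psmb11, 3410 bp apart on chromosome 14. Exon bases are shared with another gene in 14 of 49 members, over 10% of the exon length in 5. Psmb5 shares 109 bases with Mir686. Its processed copy Psmb5-ps had 0 reads in every library, and reads matching both places equally would have been left out of either count.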

How the data were processed

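RNA-seq was done on E12.5 maxillary prominences of 3 WT and 3 Dlx2OE samples, grouped by the sample labels. The authors filtered the reads, mapped them to mm10 with STAR 2.7.3a, counted them with HTSeq 0.12.4 in union mode and deposited raw counts per gene. The library kit does not mark strand. The files were matched to GENCODE M21, which holds 53706 of 53801 identifiers. Members and lists were chosen with earlier results of these data known.

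Counts were tested with edgeR 4.0.16 (filterByExpr minimum count 10, TMM, quasi-likelihood F test on genotype, Benjamini-Hochberg adjustment over 17514 genes). Levels are TMM-scaled CPM, log2 levels use a prior count of 2, and errors are SDs over 3 samples. The SE of a log2 fold change is its absolute value divided by the square root of the edgeR F statistic. The floor was 3 reads, or 0.0955 to 0.111 CPM, and covers counting error only.

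Named with all values were called members, the highest and lowest fold change of each particle, the catalytic subunits and untested members. Alternatives were DESeq2 1.42.0, RLE factors, library size alone, other filters, a length and GC correction (loess span 0.5), a replicate block, removal of mitochondrial and haemoglobin genes and removal of each sample. The scripts were tested on simulated data.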

Additional observations from a re-analysis of the deposited data

Results flagged for a closer look

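The share of read pairs that fell on no annotated gene, which the comparisons do not use, was above the WT range of 5.03% to 5.43% in every Dlx2OE sample. It was 5.75% in Dlx2OE 1, 7.81% in Dlx2OE 2 and 14.7% in Dlx2OE 3, and the members' median deviation was -0.07, -0.09 and -0.30 in the same samples. Its part in the proteasome levels was not tested.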

How the results depend on the processing

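The number of members called, 2, was 8 under DESeq2, 8 with no filter on low counts, 0 with the length and GC correction and 6 without WT 3 and Dlx2OE 3, an alternative added after seeing the data. It ranged from 0 to 18 with 1 sample left out, 18 being the value without WT 3. With a replicate block it was 4, all lower, where 554 of 17514 genes were called lower. Residual correlations of same-numbered samples were -0.07, -0.21 and 0.07, too few values to tell whether the numbers pair samples. The cause of these shifts in the number called was not tested. No call was lost or gained with RLE factors, library size alone or without mitochondrial and haemoglobin genes. By principal transcript length, also added after seeing the data, median WT levels were 169 (20S), 115 (19S) and 0.713 (inducible) CPM per kilobase.

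Small fold changes turned direction. With the length and GC correction, without and with the block, they were 0.0259 and 0.0265 for Psmc5, -0.0376 and -0.0332 for Psmd1, 0.0105 and 0.0088 for Psmd13 and 0.078 and 0.075 for Psmg1. With library size alone they were 0.0078 for Psmd11, 0.0352 for Psmd13 and 0.0286 for Psmf1. With 1 sample left out, Psmd1 ranged from -0.0077 to 0.15 and Psmd13 from -0.11 to 0.0364. Counts of 3 to 46 reads limit Psma8, Psmb8 and Psmb9.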
